A study of Homo sapiens with 12 samples.

Results

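The BCL2 family decides, at the outer mitochondrial membrane, whether a stressed cell enters apoptosis. Its guardians (among them BCL2, BCL-xL and MCL1) hold the effectors BAX and BAK in check. The BH3-only proteins, which share with the rest of the family only a short BH3 helix, either occupy the guardians or engage the effectors directly. Once BAX and BAK open the membrane, cytochrome c leaves the mitochondrion and caspases are activated. In carcinoma cells MCL1 and BCL-xL are the guardians most often relied on for survival.

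The transcripts of 10 family members were read from an RNA-seq table of 58735 genes: the guardians BCL2, BCL2L1 (encoding BCL-xL) and MCL1, the effectors BAX and BAK1 (encoding BAK), and the BH3-only genes BCL2L11 (BIM), PMAIP1 (NOXA), BBC3 (PUMA), BID and BIK. They were chosen by gene symbol, and all 10 symbols matched an identifier of the table. Of these, 9 passed the filter on low counts. BIK, a BH3-only gene, had 0 or 1 count in every library, below the 3 counts set as the floor of detection (0.0881 to 0.121 CPM, the count scaled to the library total), and it was not tested.

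The cells were FDX2-iKO ES2 cells, a line made from ES2 human ovarian carcinoma cells in which the endogenous FDX2 gene was knocked out by CRISPR-Cas9 and an editing-resistant, HA-tagged FDX2 was placed under a Tet-On promoter. FDX2 is a mitochondrial ferredoxin needed to assemble iron-sulfur clusters. All 4 conditions share the knockout and the transgene, and differ in doxycycline (Doxy), which keeps FDX2 expressed, and in oxygen. At 20% O2, cells were kept for 6 days with or without Doxy. At 3% O2, they were kept with or without Doxy for 4 days at 20% O2 and then 3 days at 3% O2. Each condition has 3 libraries, 12 in all. The line is clonal, so the results describe cells of 1 clone, and an effect of Doxy itself cannot be told apart from that of FDX2. Likewise, the extra day of culture cannot be told apart from the oxygen level. The comparisons share libraries: those at 20% O2 without Doxy, for example, enter both the comparison by FDX2 and the comparison by oxygen.

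Library totals lay between 24958386 and 34313637 counts. Replicates of a condition differed along the GC content of transcripts. The difference between the 2226 GC-richest and the 2226 GC-poorest of 11129 genes stood 0.42 (log2) above its condition's mean in replicate 1 at 20% O2 with Doxy, 0.40 above in replicate 3 at 3% O2 with Doxy and 0.23 above in replicate 2 at 3% O2 without Doxy. Conditions differed too. Against the mean of all libraries, this difference was -0.35 to -0.19 at 20% O2 and 0.039 to 0.43 at 3% O2, both without Doxy. With Doxy it was -0.32 to 0.41 at 20% O2 and -0.16 to 0.46 at 3% O2. The conditions without Doxy thus did not overlap on this measure. For members, changes of sign or call without the replicates named above, or with the GC trend removed, are given or counted below. For other genes of the pathway, values are from the fit without GC correction, and only counts of called genes are given with it. FDX2 itself had 2 to 13 counts per library, too few to check the labels. Of 8 markers of the line, KRT7, KRT8, KRT18, VIM and PAX8 were present (the lowest, PAX8, at 5.59 to 19.3 CPM), whereas MUC16 had 0 counts and EPCAM and WT1 at most 3 and 8 counts. Of 7 markers of other cell types, PTPRC, CD3E, PECAM1, ALB and DCN had at most 6 counts, but COL1A1 stood at 1069 to 2447 CPM and CDH5 at 22.1 to 51.4 CPM in every library. The summed level of these 7 markers was 1284 to 1942 CPM at 20% O2 with Doxy, 1095 to 1167 CPM at 20% O2 without Doxy, 1371 to 2022 CPM at 3% O2 with Doxy and 1884 to 2499 CPM at 3% O2 without Doxy, and its part in the results below was not tested.

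Levels of different genes were compared as CPM per kilobase of exon. On this scale MCL1 led in all 4 conditions, at 156 ± 2.7 (SD, n = 3) at 20% O2 with Doxy, 121 ± 2.2 at 20% O2 without Doxy, 155 ± 7.0 at 3% O2 with Doxy and 147 ± 4.8 at 3% O2 without Doxy. The effector BAX lay at 24.0 to 26.3 (condition means), PMAIP1 at 18.3 to 28.6 and BCL2L1 at 17.0 to 23.3, in an order that changed with the condition. BAK1 lay at 10.8 to 11.1 and BID at 5.45 to 6.37. BCL2 (1.35 to 1.68) and BCL2L11 (1.03 to 1.58) were lower, and BBC3 was the lowest of the 9 at 0.170 to 0.323. The levels of these 3 guardians were therefore uneven. MCL1 made up 85.6 to 89.1% of their summed level per length (condition means), BCL2L1 9.97 to 13.6% and BCL2 0.769 to 1.205%. The guardians BCL2L2 and BCL2A1, read with the other family genes below, were outside this sum. They stood above BCL2 in every condition, at 8.30 to 11.6 and 9.38 to 15.02 (condition means). Of the exon bases of BCL2L2, 24.3% are shared with other genes, so its counts are less certain.

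Most neighbours in this order were separated by every library. The exceptions were PMAIP1 and BCL2L1 with Doxy at both oxygen levels, and BAX and BCL2L1 at 3% O2 without Doxy, whose libraries overlapped. PMAIP1 changed its place, ranking above BAX at 20% O2 without Doxy, where it was second to MCL1, and below BAX in the other conditions. It ranked above BCL2L1 at 20% O2 and below it at 3% O2. At 3% O2 without Doxy, every library of BCL2L1 (mean 23.3) was above every library of PMAIP1 (mean 18.8). BCL2L11 ranked above BCL2 at 3% O2 with Doxy (1.58 against 1.35) and below it in the other conditions. With the length of the longest transcript in place of all exons, BAX stayed above PMAIP1 in that condition too, BCL2 stayed above BCL2L11 at 3% O2 with Doxy, and BID passed BAK1 at 3% O2 without Doxy.

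**Figure D1:**
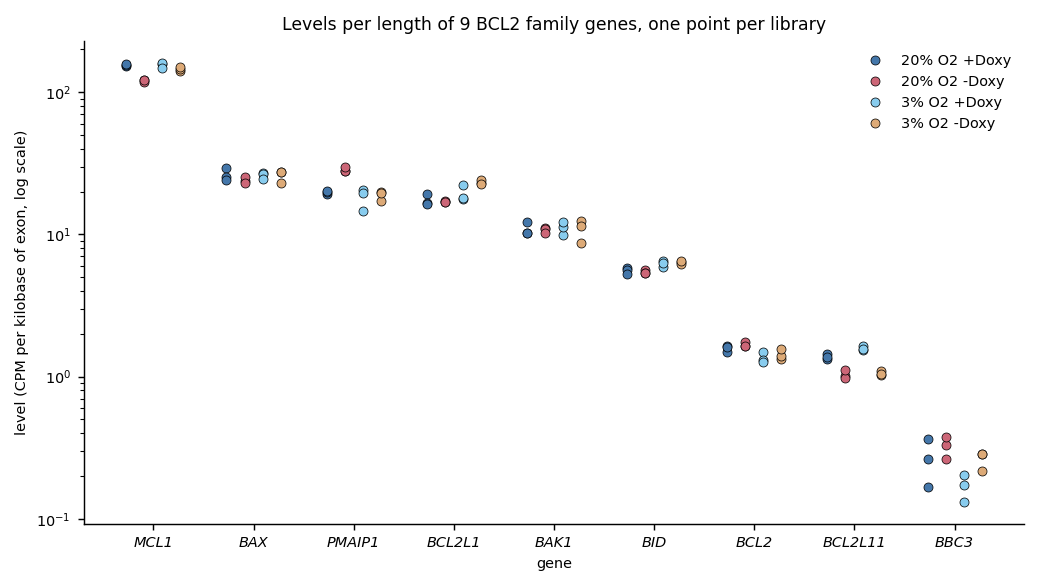
Levels of 9 BCL2 family genes in CPM per kilobase of exon (log axis), 1 point per library, coloured by condition. MCL1 lies above every other member in all 12 libraries and BBC3 below, while PMAIP1 at 20% O2 without Doxy (mean 28.6) rises past BAX (mean 24.0).

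FDX2 loss at 20% O2 moved 3 members past the threshold. The BH3-only gene PMAIP1 rose, and the guardian MCL1 and the BH3-only gene BCL2L11 fell. A gene was called where the quasi-likelihood test of edgeR gave an adjusted p under 0.05 (Benjamini-Hochberg, over all 16891 genes tested), with no minimum fold. By this rule 35.3% of all tested genes were called, 17.6% higher and 17.7% lower, so 3 of 9 is near the background. The libraries of both conditions did not overlap for 3 members, against 52.3% of all tested genes. The median log2 fold change of the 9 tested members was -0.023, beside 0.0090 for all tested genes.

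At 3% O2, FDX2 loss changed 1 tested member, BCL2L11, which fell. There, 7.31% of all tested genes were called, 4.2% higher and 3.11% lower, and 3 members did not overlap, against 24.6% of all genes. Low oxygen with Doxy changed 0 of the 9 tested members in edgeR's quasi-likelihood test, with 3 (BID, BCL2 and BCL2L11) at an unadjusted p under 0.05, and DESeq2's Wald test also called 0. In that comparison 2.02% of all tested genes were called and 15.4% did not overlap, as did 3 members. The share of all tested genes at an unadjusted p under 0.05 is not given here, for the members or for the lists below. Low oxygen without Doxy changed 4 members: MCL1, BCL2L1 and BID rose, and PMAIP1 fell. Here 25.8% of all tested genes were called, 13.9% higher and 11.9% lower, and 49.4% did not overlap, as did 5 members. In the test of whether 3% O2 altered the response to FDX2 loss, 1 member was called, MCL1, whose response was more positive at 3% O2, with 7.29% of all genes called (3.21% more positive and 4.08% more negative). The called members changed by less than 2-fold in each comparison.

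**Figure D2:**
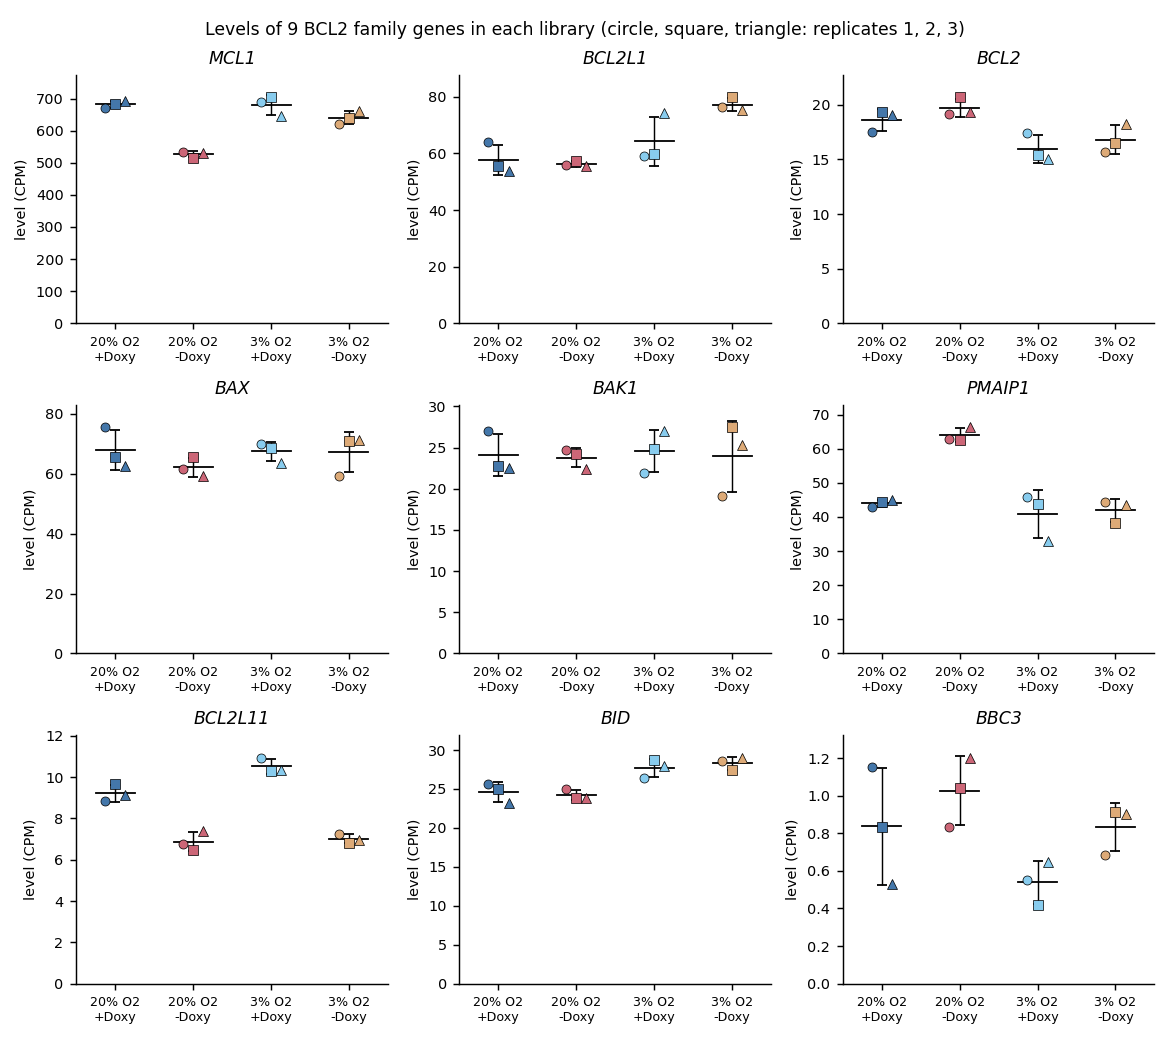
Level in CPM (from 0) of 9 BCL2 family genes in each library of the 4 conditions; the black bar is the mean and the error bar the SD of 3 replicates. PMAIP1 is highest and MCL1 lowest at 20% O2 without Doxy, and BCL2L11 is lower without Doxy at both oxygen levels.

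**Figure D3:**
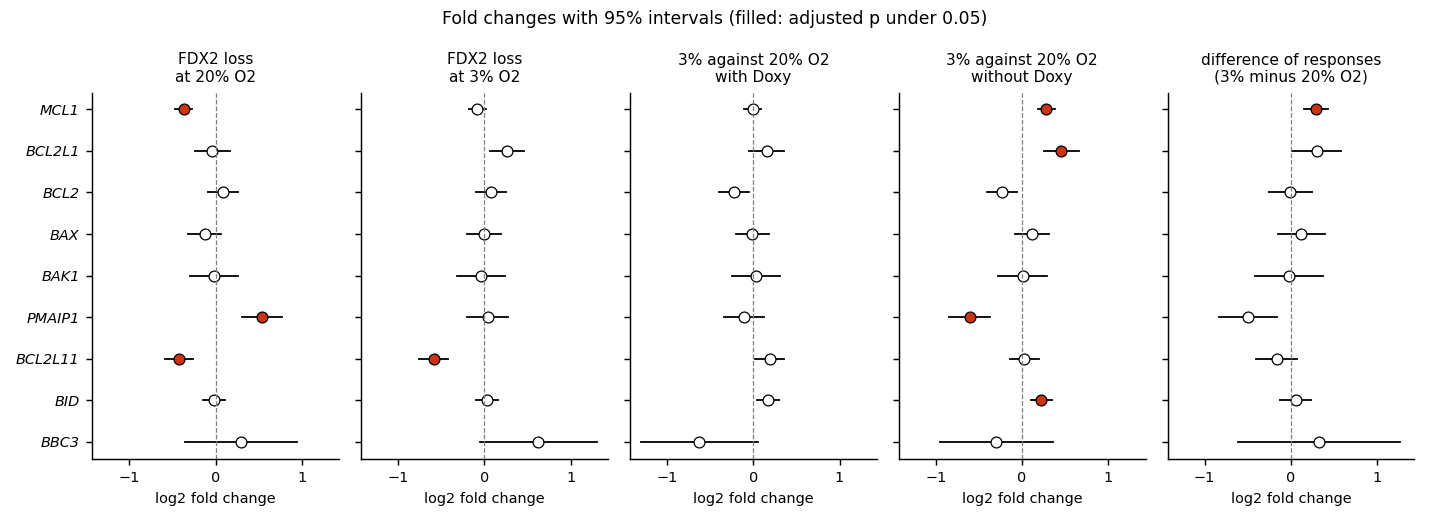
Log2 fold changes (edgeR) of the 9 members with 95% confidence intervals in the 4 comparisons and in the difference between the 2 responses to FDX2 loss. Filled points have an adjusted p under 0.05: 3, 1, 0, 4 and 1 members from left to right.

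The guardian MCL1, a short-lived protein that binds BAK, NOXA and BIM, maps to chr1:150574551-150579738 on the minus strand of GRCh38. Its level was 669, 683 and 692 CPM at 20% O2 with Doxy and 534, 516 and 531 CPM without Doxy. At 3% O2 it was 688, 704 and 645 CPM with Doxy and 620, 641 and 662 CPM without Doxy. The 3 libraries at 20% O2 without Doxy were the lowest of the 12, and the conditions overlapped at 3% O2. At 20% O2, FDX2 loss lowered MCL1 1.29-fold (log2 fold change -0.37 ± 0.045 SE, edgeR adjusted p = 9.19e-05), a call kept under all 13 alternatives that use the adjusted p alone. At 3% O2 the log2 fold change was -0.08 (95% interval -0.18 to 0.014, edgeR adjusted p = 0.286). The alternatives counted for other calls below likewise leave out the 2-fold minimum, under which no member was called.

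In cells without Doxy, MCL1 was 1.22-fold higher at 3% than at 20% O2 (log2 fold change 0.28 ± 0.045, edgeR adjusted p = 0.00124), and with Doxy the log2 fold change was -0.0050 (95% interval -0.10 to 0.093). The test of the difference gave 0.29 ± 0.063 (log2, response at 3% minus that at 20% O2; edgeR adjusted p = 0.0209). This call was kept in 9 of 18 alternatives, whose values ran from 0.26 to 0.31. It was lost with the replicate number as a block (edgeR adjusted p = 0.0651), with no filter on low counts (0.157) and with at least 10 counts required in every library (0.0510). It was also lost without replicate 2 at 20% O2 with Doxy (edgeR adjusted p = 0.0542), without replicate 1, 2 or 3 at 20% O2 without Doxy (0.0847, 0.104 and 0.0912) and without replicate 2 or 3 at 3% O2 without Doxy (0.0515 and 0.0560).

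The guardian BCL2L1 encodes BCL-xL, which restrains BAX and BAK, and its shorter splice form BCL-xS, which the gene counts cannot separate. The gene lies at chr20:31664452-31723989 on the minus strand, and 43.0% of its exon bases are shared with ABALON, an RNA on the opposite strand. The strand setting of the counting is not given in the sources used here, so reads of both could be mixed. BCL2L1 stood at 63.9, 55.5 and 53.9 CPM at 20% O2 with Doxy, and at 55.8, 57.3 and 55.6 CPM without Doxy. At 3% O2 the values were 58.9, 59.8 and 74.3 CPM with Doxy and 76.3, 79.9 and 75.4 CPM without Doxy. The 3 libraries at 3% O2 without Doxy were thus the highest, with replicate 3 at 3% O2 with Doxy, 1 of the GC-shifted libraries, just below them.

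Without Doxy, BCL2L1 was 1.37-fold higher at 3% than at 20% O2 (log2 fold change 0.46 ± 0.091, edgeR adjusted p = 0.00465). The call was kept under all 15 alternatives, and its value was 0.27 with the GC trend removed. For FDX2 loss at 3% O2 the log2 fold change was 0.26 and did not pass (edgeR adjusted p = 0.108), although the libraries did not overlap. Without the GC-shifted replicate 3 at 3% O2 with Doxy it was 0.38 (edgeR adjusted p = 0.0128), and with the GC trend removed 0.24 (edgeR adjusted p = 0.00056). At 20% O2 the corresponding value was -0.038 (95% interval -0.24 to 0.16), and 0.10 with the GC trend removed (edgeR adjusted p = 0.0288). The difference of the responses was 0.30 (edgeR adjusted p = 0.186), or 0.42 without the same library (edgeR adjusted p = 0.0215). Low oxygen with Doxy gave 0.16 (edgeR adjusted p = 0.542), or 0.13 with the GC trend removed (edgeR adjusted p = 0.0426).

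BCL2, the founding guardian, spans chr18:63123346-63320128 on the minus strand. It stood at 17.5, 19.3 and 19.1 CPM at 20% O2 with Doxy, 19.2, 20.7 and 19.3 CPM without Doxy, 17.4, 15.4 and 15 CPM at 3% O2 with Doxy and 15.7, 16.5 and 18.2 CPM without Doxy. All but 1 of the libraries at 3% O2 were below all of those at 20% O2: replicate 3 at 3% O2 without Doxy lay above replicate 1 at 20% O2 with Doxy. The log2 fold changes by oxygen were -0.22 with Doxy (edgeR adjusted p = 0.226) and -0.23 without Doxy (edgeR adjusted p = 0.0541), neither past the threshold. The latter passed in 6 of 15 alternatives, among them without replicate 3 at 3% O2 without Doxy (-0.29, edgeR adjusted p = 0.0381) and with DESeq2's Wald test (-0.25, adjusted p = 0.0400). For FDX2 loss the values were 0.08 at both oxygen levels, with 95% intervals of -0.09 to 0.26 at 20% O2 and -0.098 to 0.25 at 3% O2.

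The effectors showed no call in any of the 5 comparisons. BAX, which moves from the cytosol to the mitochondrial membrane when activated, lies at chr19:48954815-48961798 on the plus strand. Its level was 75.5, 65.8 and 62.5 CPM at 20% O2 with Doxy, 61.6, 65.5 and 59.4 CPM without Doxy, 69.9, 68.8 and 63.7 CPM at 3% O2 with Doxy and 59.4, 71.0 and 71.2 CPM without Doxy. The conditions overlapped in all comparisons. The log2 fold change for FDX2 loss was -0.13 (95% interval -0.32 to 0.066) at 20% O2 and -0.0052 (-0.20 to 0.19) at 3% O2. BAK1, whose product sits in the outer membrane, lies at chr6:33572547-33580293 on the minus strand. It stood between 19.1 and 27.5 CPM, and both of these extremes came from 3% O2 without Doxy (19.1, 27.5 and 25.3 CPM). Its condition means, 23.8 to 24.6 CPM, had the smallest range of the 9 members (0.052, log2). The log2 fold change for FDX2 loss was -0.019 (95% interval -0.30 to 0.26) at 20% O2 and -0.039 (-0.32 to 0.24) at 3% O2. With the GC trend removed, BAK1 gave -0.25 for low oxygen without Doxy (edgeR adjusted p = 0.0343), against 0.0093 without that correction. The transcripts of BAX and BAK1 are GC-rich, at 60.4 and 58.7%.

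PMAIP1, the BH3-only gene of NOXA, which binds MCL1 and promotes its degradation, lies at chr18:59899948-59904306 on the plus strand. Its level was 42.8, 44.4 and 44.9 CPM at 20% O2 with Doxy and 62.7, 62.7 and 66.2 CPM without Doxy. At 3% O2 it was 45.9, 43.9 and 32.8 CPM with Doxy and 44.4, 38.1 and 43.4 CPM without Doxy. The libraries at 20% O2 without Doxy stood apart above the other 9, which overlapped, and the lowest, at 32.8 CPM, was the GC-shifted replicate 3 at 3% O2 with Doxy. At 20% O2, FDX2 loss raised PMAIP1 1.45-fold (log2 fold change 0.54 ± 0.11, edgeR adjusted p = 0.00268), a call kept under all 13 alternatives. At 3% O2 the log2 fold change was 0.039 (95% interval -0.20 to 0.28).

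Without Doxy, PMAIP1 was 1.52-fold lower at 3% than at 20% O2 (log2 fold change -0.61 ± 0.11, edgeR adjusted p = 0.00252), kept under all 15 alternatives. With Doxy the value was -0.11 (95% interval -0.34 to 0.13). The difference of the responses, -0.50 ± 0.15, did not pass (edgeR adjusted p = 0.0745). It passed without replicate 3 at 3% O2 with Doxy (-0.63, edgeR adjusted p = 0.00331), with the GC trend removed (-0.45, edgeR adjusted p = 0.0181) and in DESeq2's Wald test (-0.51, adjusted p = 0.0257).

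BCL2L11 encodes BIM, a BH3-only protein that binds all guardians and can engage BAX. The gene lies at chr2:111119378-111168447 on the plus strand, with 10.9% of its exon bases shared with MIR4435-2HG on the opposite strand. Its level was 8.85, 9.67 and 9.14 CPM at 20% O2 with Doxy and 6.77, 6.48 and 7.38 CPM without Doxy. At 3% O2 it was 10.9, 10.3 and 10.3 CPM with Doxy and 7.25, 6.83 and 6.96 CPM without Doxy. Every library without Doxy was below every library with Doxy, at both oxygen levels. FDX2 loss lowered BCL2L11 1.34-fold at 20% O2 (log2 fold change -0.42 ± 0.075, edgeR adjusted p = 0.00135) and 1.501-fold at 3% O2 (-0.59 ± 0.076, edgeR adjusted p = 0.00132). Both calls were kept under all 13 alternatives each. The responses did not differ detectably between oxygen levels (difference -0.16, 95% interval -0.40 to 0.072). Low oxygen with Doxy gave 0.19 (95% interval 0.026 to 0.35), which did not pass (edgeR adjusted p = 0.290) although the libraries did not overlap, and without Doxy 0.027 (-0.14 to 0.20).

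The regions before the start sites of these genes were read for 5 motifs on both strands. They were the ATF/CRE core TGACG, the C/EBP-ATF composite TGATGNAA, the hypoxia response core ACGTG, the FOXO site GTAAACA and the E2F site TTTNNCGC. RefSeq promoters on GRCh38.p14 (250 bases before to 50 after the start) exist in the table used for 8 members, in 13 entries, and not for MCL1 and BIK. Of all 35116 promoters of this length, 24.6% held TGACG, 3.62% TGATGNAA, 21.4% ACGTG, 3.42% GTAAACA and 6.89% TTTNNCGC. TGACG occurred in promoters of 4 of the 8 members (PMAIP1, BCL2, BAX and BCL2L1), ACGTG in 3 (BAX, BBC3 and BID), GTAAACA in 1 (BCL2L11), TTTNNCGC in 1 (BCL2L1) and TGATGNAA in 0. A member counts here if any of its entries matched, whereas the shares above are per promoter. TGACG matched in 1 entry of each of its 4 members, among 13 entries in all. The 2 BID entries with ACGTG overlap and hold the same site. The 250 bases before the start are shown for PMAIP1 and BCL2L11, the members that moved with FDX2 loss and have an entry, and for BAX, the member with the most matches, which did not pass in any comparison. Capitals mark the matches.
PMAIP1, chr18:59899746-59899995, plus strand: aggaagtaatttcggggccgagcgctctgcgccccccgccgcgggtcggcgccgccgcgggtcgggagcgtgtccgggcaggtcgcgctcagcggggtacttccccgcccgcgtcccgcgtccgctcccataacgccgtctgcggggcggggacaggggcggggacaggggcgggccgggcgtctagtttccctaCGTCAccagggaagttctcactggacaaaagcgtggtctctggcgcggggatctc
BCL2L11, chr2:111120664-111120913, plus strand: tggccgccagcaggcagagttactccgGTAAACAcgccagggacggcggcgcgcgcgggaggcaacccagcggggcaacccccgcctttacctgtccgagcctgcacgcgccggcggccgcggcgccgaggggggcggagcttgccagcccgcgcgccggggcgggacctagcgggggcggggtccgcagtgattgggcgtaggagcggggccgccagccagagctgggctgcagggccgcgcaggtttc
BAX, chr19:48954625-48954874, plus strand: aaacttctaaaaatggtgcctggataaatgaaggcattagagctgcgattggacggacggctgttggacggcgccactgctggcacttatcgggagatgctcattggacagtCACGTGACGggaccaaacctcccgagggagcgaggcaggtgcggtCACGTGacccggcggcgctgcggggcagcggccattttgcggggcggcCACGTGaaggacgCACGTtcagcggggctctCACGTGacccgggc
In PMAIP1 the match is TGACG on the minus strand, read as CGTCA, 55 bases before the start, and in BCL2L11 it is GTAAACA on the plus strand, 223 bases before. BAX holds 9 matches of ACGTG, most of them pairs on both strands of the palindrome CACGTG, and its TGACG overlaps the first of these. A match is a run of letters and was not tested as a binding site.

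BID encodes a BH3-only protein that caspase-8 cleaves, linking death receptors to mitochondria. It lies at chr22:17734138-17774770 on the minus strand. Its level was 25.7, 24.97 and 23.2 CPM at 20% O2 with Doxy and 25, 23.9 and 23.8 CPM without Doxy. At 3% O2 it was 26.4, 28.7 and 28.0 CPM with Doxy and 28.5, 27.4 and 29.04 CPM without Doxy. Every library at 3% O2 was above every library at 20% O2. The increase passed the test without Doxy (1.17-fold, log2 fold change 0.23 ± 0.057, edgeR adjusted p = 0.0161) and did not with Doxy (0.17, 95% interval 0.044 to 0.30, edgeR adjusted p = 0.200). Between oxygen levels, the response of BID to FDX2 loss differed by 0.055 (95% interval -0.12 to 0.23). The call without Doxy was kept in 10 of 15 alternatives. It was lost with no filter on low counts (edgeR adjusted p = 0.0730). Without replicate 2 or 3 at 20% O2 without Doxy (edgeR adjusted p = 0.0627 and 0.0701) or replicate 3 at 3% O2 without Doxy (0.0566) it was lost too. The fit with the replicate block and the GC trend removed also lost it (0.15, edgeR adjusted p = 0.0518). For FDX2 loss the log2 fold change was -0.023 at 20% O2 and 0.032 at 3% O2.

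BBC3, the gene of the BH3-only protein PUMA, lies at chr19:47220822-47232766 on the minus strand and had 11 to 37 counts per library. Its level was 1.151, 0.833 and 0.529 CPM at 20% O2 with Doxy and 0.834, 1.04 and 1.203 CPM without Doxy. At 3% O2 it was 0.550, 0.420 and 0.647 CPM with Doxy and 0.684, 0.913 and 0.905 CPM without Doxy. The libraries at 3% O2 with Doxy were below those without Doxy, and the conditions at 20% O2 overlapped widely. The log2 fold change for FDX2 loss was 0.29 (95% interval -0.35 to 0.94) at 20% O2 and 0.62 (-0.056 to 1.30) at 3% O2, so that neither passed and a 2-fold change lies within the latter interval. Its transcript is the most GC-rich of the 9 tested (64.5%). With the GC trend removed it passed for FDX2 loss at 20% O2 (0.64, edgeR adjusted p = 0.0440) and for low oxygen without Doxy (-0.70, edgeR adjusted p = 0.0399, against -0.30).

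Ratios between members were taken within each library, on the per-length scale, as a description chosen after the levels were known. PMAIP1 amounted to 12.6 ± 0.10 (SD, n = 3) per 100 of MCL1 at 20% O2 with Doxy and 23.7 ± 0.71 without Doxy. At 3% O2 the values were 11.7 ± 1.6 with Doxy and 12.8 ± 1.2 without Doxy. The 3 libraries at 20% O2 without Doxy (23.0 to 24.4) lay above the other 9 (9.95 to 14.0). PMAIP1 per BCL2L11 was 14.2 ± 0.50 at 20% O2 with Doxy and 27.7 ± 1.0 without Doxy, and 11.6 ± 1.8 and 17.8 ± 1.0 at 3% O2, without overlap by Doxy at either oxygen level. MCL1 per BCL2L1 was 9.01 ± 0.94 and 7.10 ± 0.24 at 20% O2 with and without Doxy and 8.13 ± 1.3 and 6.30 ± 0.31 at 3% O2.

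**Figure D4:**
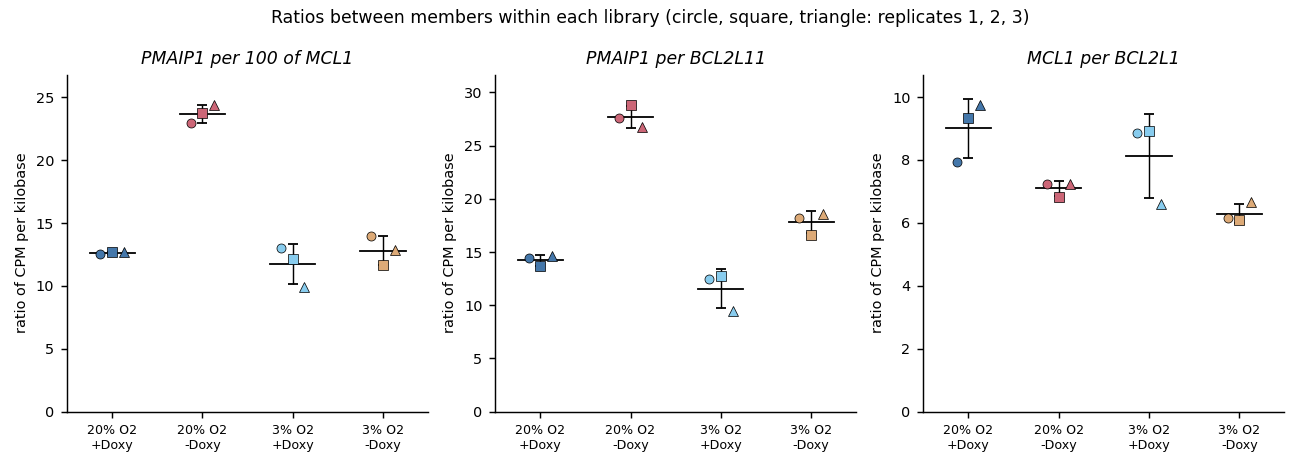
Ratios of CPM per kilobase between members in each library (axes from 0); the black bar is the mean and the error bar the SD of 3 replicates. PMAIP1 per 100 of MCL1 is 23.0 to 24.4 at 20% O2 without Doxy and 9.95 to 14.0 in the other 9 libraries.

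For the 3 members whose condition means ranged most, the genes with the most similar level across the 12 libraries were looked up by Pearson's r of log2 CPM among 10790 genes of at least 5 CPM. Libraries share depth and GC shift, so r is a description only. Closest to PMAIP1 were RING1 (r = 0.980), TMEM267 (0.978) and ZC2HC1A (0.9753), each highest at 20% O2 without Doxy (RING1 at 47.8 CPM there and 34.1 to 36.3 CPM in the other conditions). Closest to BCL2L11 were SP1 (0.980), RBM12B (0.980) and MPZL1 (0.964), all lower without Doxy at both oxygen levels (SP1 at 85.9 and 89.8 CPM without Doxy and 105 and 109 CPM with Doxy). For BBC3 they were AHRR (0.913), SNHG7 (0.896) and ADAMTS1 (0.893).

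The other family genes were read from a list of 13, of which 8 were tested. BCL2L10, BOK, HRK, BCL2L14 and BCL2L15 had at most 11 counts in any library. Of the 8, FDX2 loss raised 4 and lowered 1 at 20% O2, where 35.3% of all tested genes were called. BMF, a BH3-only gene that binds guardians, rose most, from 0.474 ± 0.035 to 2.70 ± 0.54 CPM (log2 fold change 2.50 ± 0.36, edgeR adjusted p = 0.00034), from as few as 13 to 16 counts per library. BNIP3L (0.43), the guardian BCL2L2 (0.35) and BCL2L13 (0.35) rose as well, and BNIP3 fell by 0.26 on the log2 scale. At 3% O2, with 7.31% of all tested genes called, FDX2 loss lowered 1 of the 8 (BNIP3, -0.60) and raised 0, and BMF did not pass (1.11, edgeR adjusted p = 0.0895). BNIP3 and BNIP3L, HIF targets that act in mitophagy, were the 2 of the 8 that rose at 3% O2 with Doxy (1.67 and 1.51), beside 2.02% of all tested genes called in that comparison. Without Doxy, where 25.8% of all tested genes were called, 2 rose (BNIP3 1.32 and BNIP3L 0.85) and 4 fell (BMF -1.11, the guardian BCL2A1 -0.68, BCL2L2 -0.33 and BCL2L13 -0.28).

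Downstream of the family, the 16 genes of the apoptosome, caspases and DNA fragmentation were all tested. FDX2 loss at 20% O2 raised 3 and lowered 4 (35.3% of all tested genes called), with a median log2 fold change of -0.038 beside 0.0090 for all genes. CASP10, an initiator caspase, rose by 1.82 (log2) from 3 to 11 counts per library. DFFB, the caspase-activated nuclease, fell by 0.55 and DFFA, the inhibitor of DFFB, rose by 0.27 on the log2 scale. Smaller changes were seen in CASP8 (0.19), which cleaves BID, CASP9 (-0.26), the caspase of the apoptosome, and CASP2 (-0.25). Low oxygen with Doxy changed 0 of the 16 in edgeR's test, beside 2.02% of all tested genes called, with 3 at an unadjusted p under 0.05. DESeq2's Wald test also called 0. Without Doxy, with 25.8% of all tested genes called, 4 rose, ENDOG (0.52), DFFB (0.38), APAF1 (0.31) and CASP2 (0.14), and DFFA fell by 0.40 on the log2 scale. Of the exon bases of ENDOG, 39.2% are shared with another gene.

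Of 7 inhibitors of apoptosis, 5 were tested, and NAIP and BIRC7 were too low. FDX2 loss at 20% O2 raised 2 and lowered 2, beside 35.3% of all tested genes called. BIRC3, an NF-kB-induced ubiquitin ligase, rose from 7.64 ± 0.43 to 25.2 ± 2.3 CPM (log2 fold change 1.72 ± 0.11, edgeR adjusted p = 1.39e-06). BIRC5, which encodes survivin, a protein of mitosis, fell from 163 ± 6.1 to 78.7 ± 0.62 CPM (-1.05 ± 0.051, edgeR adjusted p = 2.83e-07). XIAP, the direct caspase inhibitor, rose by 0.23 and BIRC6 fell by 0.21 on the log2 scale. At 3% O2, BIRC3 rose (0.86) and BIRC5 fell (-0.24), beside 7.31% of all tested genes called. Low oxygen with Doxy changed 0 of the 5 in edgeR's test, beside 2.02% of all tested genes called. It left 1 at an unadjusted p under 0.05, and changed 0 in DESeq2's Wald test. Without Doxy it lowered BIRC3 (-1.24) and XIAP (-0.24) and raised BIRC5 (0.69) and BIRC6 (0.18), beside 25.8% of all tested genes called.

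Of 11 death receptor genes and adaptors, 10 were tested (not TNFSF10, which encodes TRAIL). FDX2 loss at 20% O2 raised 3, namely CFLAR (0.69), the inhibitor of caspase-8 activation, FAS (0.51) and the TRAIL receptor TNFRSF10B (0.21), and lowered the adaptor FADD (-0.58). In that comparison 35.3% of all tested genes were called. At 3% O2, with 7.31% of all tested genes called, FDX2 loss raised CFLAR (0.50). TNFRSF10D, a TRAIL receptor without a full death domain, rose at 3% O2 with Doxy (0.30), where 2.02% of all tested genes were called, and without Doxy (0.37), where 25.8% were. Without Doxy, TNFRSF1A (0.45) and FADD (0.41) rose too, and TNFRSF10A (-0.29) and TNFRSF10B (-0.29) fell. In FADD, 54.9% of the exon bases are shared with an opposite-strand RNA, so its counts are uncertain.

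Of 14 regulators of the family, 13 were tested, and TP73 was too low. FDX2 loss at 20% O2 raised 5 and lowered 4, while 35.3% of all tested genes were called. DDIT3, which encodes CHOP, a stress factor that acts on several BH3-only genes, rose from 7.96 ± 0.27 to 44.8 ± 0.81 CPM (log2 fold change 2.49 ± 0.060, edgeR adjusted p = 1.49e-09), although 39.6% of its exon bases are shared with other genes. TRIB3 (0.82) and FOXO1 (0.55), a factor known to act on BCL2L11, rose, as did HIF1A (0.46) and ATF4 (0.41). E2F1 (-0.83), JUN (-0.43), MDM2 (-0.35) and HUWE1 (-0.27) fell. At 3% O2, 4 rose, namely DDIT3 (0.85), ATF4 (0.52), FOXO1 (0.34) and HIF1A (0.29), and MDM2 fell (-0.30), beside 7.31% of all tested genes called. Low oxygen with Doxy changed 0 of the 13 in edgeR's test, beside 2.02% of all tested genes called. It left 2 at an unadjusted p under 0.05, and changed 1 in DESeq2's Wald test. Without Doxy, with 25.8% of all tested genes called, DDIT3 (-1.67), TRIB3 (-0.88), FOXO1 (-0.44) and HIF1A (-0.39) fell, and JUN (0.55) and HUWE1 (0.34), the gene of a ubiquitin ligase of MCL1, rose.

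**Figure D5:**
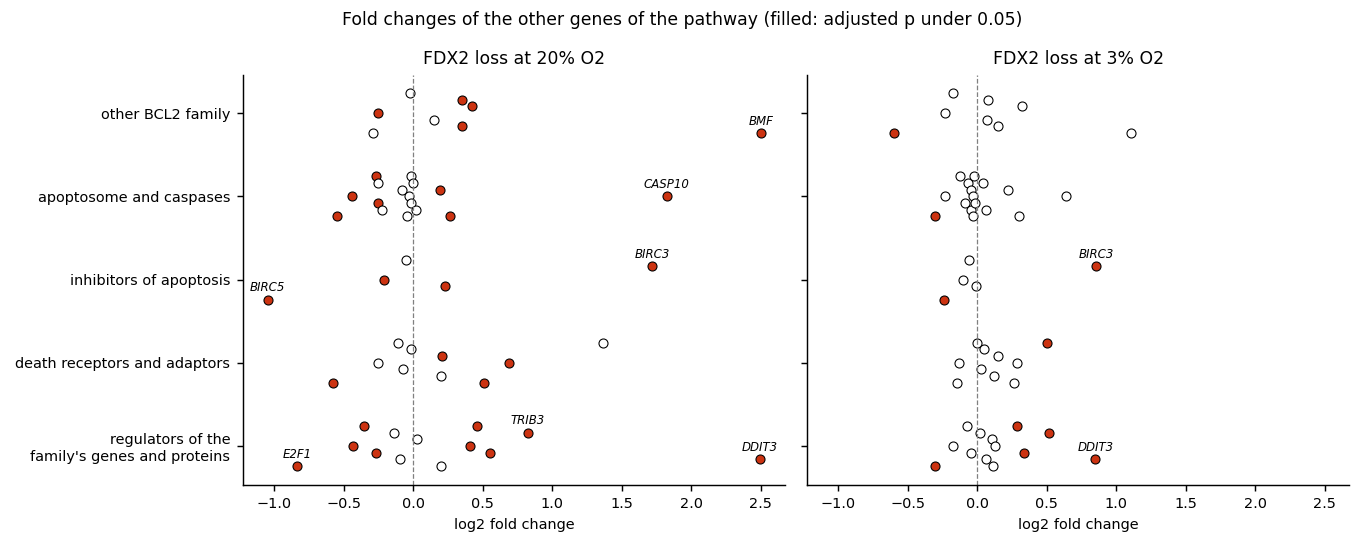
Log2 fold changes (edgeR) for FDX2 loss at 20% O2 (left) and 3% O2 (right), 1 point per tested gene of 5 lists; filled points have an adjusted p under 0.05. BMF and DDIT3 lie farthest to the right at 20% O2 (2.50 and 2.49) and BIRC5 farthest to the left (-1.05).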

How the data were processed

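The authors isolated poly(A) RNA, sequenced paired ends, used STAR for alignment and featureCounts for counting on GRCh38, per the submitters' processing notes, and deposited raw counts, 1 column per library. Versions, annotation and strand setting are not given in the sources used here. For 2 libraries at 20% O2 with Doxy (replicates 1 and 2) a read file is stated to have been lost in transfer, and their deposited counts were used. The labels call the replicates biological. All 58735 identifiers match GENCODE release 29.

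The analysis ran in R 4.3.3 (edgeR 4.0.16, limma 3.58.1). Of 32966 genes with a count, filterByExpr (minimum count 10, minimum total 15) kept 16891. After TMM scaling, all 12 libraries entered 1 quasi-likelihood fit with a mean for each condition (residual degrees of freedom: 8), with Benjamini-Hochberg adjustment over all tested genes. SE and 95% intervals come from that fit. CPM values use TMM-scaled totals and carry the SD over 3 libraries. Library totals of 24958386 to 34313637 counts set the precision, and intervals cover only the spread between these libraries. No replicate pair was identical, and their mean chi-square per gene was at least 2.88. The scripts were tested on simulated data. Alternatives used DESeq2 1.42.0 size factors or its Wald test, other filters, a 2-fold minimum, the libraries compared alone, each library left out, the replicate number as a block and, added after seeing the data, a GC correction that removes each library's lowess trend on transcript GC content.

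Same-numbered libraries deviated together between 20% and 3% O2 without Doxy (correlations of 0.247 to 0.363, others -0.432 to 0.0756), by the data rather than by a label. The values reported for every comparison, that one included, come from the fit without pairing. The replicate number entered as a block only in alternatives. This block changed no call of a member in the comparison by oxygen without Doxy by itself.

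All 10 members are named, as are, for each of 5 lists from general knowledge and each comparison, at most 4 called genes with the largest change, and genes not tested. Further genes that complete a count of at most 5 were added after their values were seen, and some listed genes are not reported here. The members and lists were chosen with earlier results of these data known.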

Additional observations from a re-analysis of the deposited data

Results flagged for a closer look

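For 7 of the genes read here, the response to FDX2 loss differed between oxygen levels in the test of the difference itself (response at 3% O2 minus that at 20% O2, log2, quasi-likelihood test of edgeR, Benjamini-Hochberg adjustment). The 7 came from 9 tested members and 8, 16, 5, 10 and 13 tested genes of the 5 lists. Over all tested genes, 7.29% were called in that test. Among the members, MCL1 was called (0.29, adjusted p = 0.0209), with -0.37 at 20% O2 and -0.08 at 3% O2. This call was kept in 9 of 18 alternatives and lost in the other 9, namely with a replicate block (adjusted p = 0.0651), under both other filters on low counts (0.157 and 0.0510) and without any 1 of 6 libraries (0.0515 to 0.104). MCL1 was lower without Doxy in all 3 libraries at 20% O2, and the conditions overlapped at 3% O2.

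Among the other genes of the pathway, 3 responses were more positive at 3% O2. BIRC5 gave 0.80 (adjusted p = 0.00022), with -1.05 at 20% O2 and -0.24 at 3% O2. DFFB gave 0.52 (adjusted p = 0.0421) and FADD 0.43 (adjusted p = 0.0183), both lower after FDX2 loss at 20% O2 and not past the threshold at 3% O2. Of the exon bases of FADD, 54.9% are shared with an opposite-strand RNA. The other 3 were more negative at 3% O2. DDIT3 gave -1.64 (adjusted p = 3.74e-06), with 2.49 at 20% O2 and 0.85 at 3% O2. BIRC3 gave -0.87 (adjusted p = 0.0094), with 1.72 and 0.86. BNIP3L gave -0.66 (adjusted p = 0.00845) and rose by 0.43 at 20% O2. At 3% O2 its value was -0.23 and did not pass (edgeR adjusted p = 0.123). For these genes of the lists, the alternatives are given only as counts of called genes, below, and not gene by gene.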

How the results depend on the processing

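Of 648 values of members recomputed under the alternatives, 568 kept their direction and their side of the threshold. With the same sign, 15 passed it newly and 14 no longer passed, and 51 changed sign. Among those 51, BCL2L1 for FDX2 loss at 20% O2 and BAK1 for low oxygen without Doxy also passed newly, both with the GC trend removed. The calls of MCL1, BCL2L11 and PMAIP1 at 20% O2, of BCL2L11 at 3% O2, and of MCL1, BCL2L1 and PMAIP1 for low oxygen without Doxy were kept under all alternatives that use the adjusted p alone. Depth limits BBC3 (11 to 37 counts per library) and BIK. Where a value changed, the cause was not tested unless stated.

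A 2-fold minimum called 0 members in each comparison, and 910, 118, 92, 451 and 186 genes in all (in the order FDX2 loss at 20% and at 3% O2, low oxygen with and without Doxy, difference). With the GC trend removed, 5, 2, 1, 7 and 2 members were called in the same order, against 3, 1, 0, 4 and 1. Genes called in all were then 7895, 3303, 1310, 5761 and 3181, against 5961, 1235, 341, 4360 and 1231. DESeq2's Wald test called 1943, 600 and 1877 genes for FDX2 loss at 3% O2, low oxygen with Doxy and the difference. It called 2 members for the difference. Without a filter on low counts, 678 genes were called for FDX2 loss at 3% O2 and 672 for the difference, with 0 members for the difference. A minimum of 10 counts in every library also left 0 members there. The libraries compared alone gave 218 genes for FDX2 loss at 3% O2 and 128 for low oxygen with Doxy, with fewer samples behind the spread. In the 5 lists, the GC correction raised the genes called for FDX2 loss from 4 to 8 (death receptors, 20% O2) and from 1 to 3 (other BCL2 family, 3% O2), for low oxygen with Doxy from 0 to 1 (caspases), 0 to 3 (inhibitors of apoptosis), 1 to 2 (death receptors) and 0 to 2 (regulators), and for the difference from 1 to 4 (other BCL2 family), 1 to 4 (caspases), 1 to 2 (death receptors) and 1 to 5 (regulators). For low oxygen without Doxy, the GC correction moved the count from 6 to 7 (other BCL2 family), 4 to 5 (inhibitors of apoptosis), 5 to 4 (death receptors) and 6 to 8 (regulators). The caspases stayed at 5. These counts do not show which of the named genes stayed called. DESeq2's Wald test gave 3 in the other BCL2 family for FDX2 loss at 3% O2 and, for the difference, 3, 2 and 4 in the other BCL2 family, caspases and regulators, and DESeq2 size factors gave 2 in the first and last of these.

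The replicate block called 676 genes for FDX2 loss at 3% O2, 218 for low oxygen with Doxy and 615 for the difference, and 0 members for the difference (MCL1, adjusted p = 0.0651, edgeR). It changed no other call of a member by itself. Outside the comparison by oxygen without Doxy, the samples share only a number, and same-numbered libraries did not all deviate together (correlations from -0.772 to 0.629).

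With each library left out in turn, the genes called ranged from 581 to 1605 for FDX2 loss at 3% O2, from 190 to 388 for low oxygen with Doxy, from 2321 to 4200 for low oxygen without Doxy and from 520 to 2191 for the difference. The members called ranged from 1 to 2 for FDX2 loss at 3% O2 and from 0 to 3 for the difference.

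Sign changes concerned values that were not called. With the GC trend removed they were, for FDX2 loss at 20% O2, BCL2L1 0.10, BAX 0.080, BAK1 0.16 and BID 0.037; for low oxygen, MCL1 0.010 with Doxy and BAX -0.18 and BAK1 -0.25 without Doxy; and for the difference, BCL2 0.019, BAX -0.17, BBC3 -0.13 and BID -0.00025. Of these, BCL2L1 (adjusted p = 0.0288, edgeR) and BAK1 (0.0343) then passed. BID gave -0.0010 without a filter for FDX2 loss at 3% O2. For low oxygen without Doxy, BAK1 (0.0093) gave -0.0089 with DESeq2 size factors, -0.0032 without a filter, -0.017 with at least 10 counts in every library, -0.0039 in the libraries compared alone, -0.011 with DESeq2's Wald test and -0.016 with the replicate block in those libraries. The block with the GC trend removed gave -0.25 for BAK1 and -0.18 for BAX.

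With each library left out, the log2 fold changes that crossed 0 ranged as follows. For FDX2 loss at 20% O2, BCL2L1 ran from -0.091 to 0.029 and BAK1 from -0.070 to 0.058. For FDX2 loss at 3% O2, BAX ran from -0.050 to 0.075, BAK1 from -0.15 to 0.097, PMAIP1 from -0.098 to 0.13 and BID from -0.0037 to 0.054. For low oxygen with Doxy, MCL1 ran from -0.033 to 0.030, BAX from -0.068 to 0.063, BAK1 from -0.044 to 0.11 and PMAIP1 from -0.20 to 0.028. For low oxygen without Doxy, BAK1 ran from -0.097 to 0.15 and BCL2L11 from -0.025 to 0.071. For the difference, BCL2 ran from -0.068 to 0.066 and BAK1 from -0.13 to 0.12.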
